A study of Schizosaccharomyces pombe with 4 samples.

Results

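The nc-TUs of fission yeast are noncoding transcription units added to the genome annotation by an earlier RNA-labelling study, and they were taken here by that annotation type alone, so that no signal value chose them. There were 487 nc-TUs among 9111 annotated units. Of these, 5 shared nucleotides with a small nuclear or small nucleolar RNA on the same strand and none with a tRNA, and they are described apart from the other 482. All values came from *S. pombe* strain YAM2492, which carries rpb3-flag, a tagged allele of a subunit of RNA polymerase II (RNAPII), and which grew exponentially. The IP group (n = 2) was RNA that came down with Rpb3-flag, which the study treats as nascent. Reads of tRNAs took 5.69% ± 0.141 (SD, n = 2) of its implied total. How much mature RNA came down with RNAPII was not tested, so nascent signal below means signal in IP. The input group (n = 2) was total RNA from the same cultures, taken through the same library protocol without the purification. Both groups thus share the tagged allele and the growth condition, no untagged strain was analysed here, and replicate 1 and replicate 2 each name an IP and an input library of the same biological sample. In bulk cultures, fewer cells that transcribe a unit and less RNA per cell cannot be told apart.

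NET-seq sequences the 3′ ends of RNA still held by elongating RNAPII, so an RNA that is degraded soon after release can be abundant in IP and scarce in total RNA. Fission yeast transcribes much noncoding RNA, often antisense to genes or divergent from their promoters, and nuclear and cytoplasmic exonucleases remove much of it. XUTs are the antisense and intergenic RNAs that accumulate without the cytoplasmic 5′ to 3′ exonuclease Exo2. Spliceosomal snRNAs (U2, U4, U5) and snoRNAs, which guide or assist the modification and cleavage of ribosomal RNA, are made by RNAPII as longer precursors but are stable once processed and bound by protein.

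Depth set the precision. The implied totals were 7100000 and 7117477 IP reads and 9082385 and 9823089 input reads, on the scale described with the processing. The median nc-TU without a small RNA had 16 and 14 reads in the IP libraries, but 0 and 1 read in input. Among these 482 units, 388 (80.5%) had at most 3 reads in each input library, against 431 protein-coding genes (8.40%). Among XUTs the share was 84.1%, and among annotated ncRNAs 67.7%. RPKM is reads per kilobase of the unit, scaled to a common library size. At 3 reads, a unit of 1 kb stands at 0.330 and 0.305 RPKM in input and 0.423 and 0.421 RPKM in IP. The floor is higher for shorter units: for novelncTU_41, 372 nt long, its mean over the input libraries was 0.854 RPKM. By read number, most input values of nc-TUs lay at or under the counting floor. Such floors, and the intervals given further on, cover counting error alone. Across the 482 units the IP libraries had a Spearman rho of 0.935 and the input libraries 0.505, given as a description since units of a library share its depth.

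The U2, U5 and U4 RNAs are shown first because the nc-TUs at their loci had the highest signals of all nc-TUs. snR46 is shown because RefSeq has it on the strand of novelncTU_468. That unit counts as 1 without a small RNA only by the annotation of these data, and it was the highest of those. The sequences are from RefSeq, build ASM294v3, and were matched by identifier. The capitals mark GTAGTA in U2, which pairs with the branch site of introns, GCCTTTTAC in U5, the loop that contacts exons, ATTTG in U4, a short T run between A and G of the Sm type, and ACA in snR46, the box that H/ACA snoRNAs carry 3 bases before the 3′ end. Each run of letters was searched on the RNA strand only and had 1 match, except that ACA was looked for at its place before the 3′ end. Among windows of the same lengths over both strands of the nuclear chromosomes, 4.50% held GTAGTA, 0.0477% held GCCTTTTAC, 25.6% held ATTTG and 1.71% held ACA at that place.
snu2 (U2, chrI:959370-959556, minus strand): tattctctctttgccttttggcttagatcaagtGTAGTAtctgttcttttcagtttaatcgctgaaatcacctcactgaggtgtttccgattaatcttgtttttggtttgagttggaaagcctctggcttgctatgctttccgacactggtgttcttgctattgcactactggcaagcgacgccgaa
snu5 (U5, chrII:3236867-3236986, plus strand): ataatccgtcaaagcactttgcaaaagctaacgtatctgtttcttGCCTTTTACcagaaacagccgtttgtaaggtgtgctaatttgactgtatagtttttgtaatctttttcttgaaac
snu4 (U4, chrII:467489-467615, minus strand): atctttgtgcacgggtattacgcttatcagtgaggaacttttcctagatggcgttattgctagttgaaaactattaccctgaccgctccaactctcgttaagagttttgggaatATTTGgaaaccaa
snR46 (chrIII:1717920-1718087, minus strand): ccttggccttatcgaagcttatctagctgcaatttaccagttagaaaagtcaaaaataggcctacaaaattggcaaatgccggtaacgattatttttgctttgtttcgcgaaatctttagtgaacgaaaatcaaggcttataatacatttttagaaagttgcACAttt

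Almost all reads of nc-TUs lay in 3 units at the snRNA loci. The 487 nc-TUs together took 16.5% ± 0.540 (SD, n = 2) of the implied IP total, and the 5 units with a small RNA alone took 16.2% ± 0.544 (SD, n = 2). The same 5 held 0.211% ± 0.0786 (SD, n = 2) of the input total. For the other 482 units the share was 0.348% ± 0.00320 (SD, n = 2) in the IP libraries, and 0.0342% ± 0.0129 (SD, n = 2) in total RNA. Any total over all nc-TUs is therefore a total of snRNA loci, and the 5 units enter no summary of signal or of calls over nc-TUs given further on.

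novelncTU_268 (files' build ASM294v2.30, chromosome I, 958924 to 959567, minus strand, 644 nt) contained the U2 gene. It had 982357 and 908164 IP reads and 10300 and 20524 input reads. The IP level was 206488 RPKM ± 11819 (SD, n = 2), and that of input 2503 RPKM ± 1049 (SD, n = 2). The interval of snu2 held 99.8% ± 0.0132 (SD, n = 2) of the IP reads of this nc-TU. Nascent and mature snRNA cannot be told apart in such counts, here or at the other snRNA loci. The reads of the nc-TU beyond those of snu2 numbered 1917 and 1942 in IP. novelncTU_182 (chromosome II, 3236872 to 3237440, plus strand, 569 nt) shared 115 of the 120 nt of snu5 and had 139471 and 156429 IP reads and 1603 and 2667 input reads. The whole snu5 interval, which begins before the nc-TU, had 137106 and 154096 IP reads, against 1549 and 2479 of input.

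novelncTU_372 (chromosome II, 467233 to 467611, minus strand, 379 nt) overlapped the interval that the table gives for U4, but its reads did not lie there. It had 53003 and 58459 IP reads and 1576 and 2167 input reads. The table's snu4 interval, 129 nt, held 237 and 280 of the IP reads and 0 of the input reads, which is 0.463% ± 0.0225 (SD, n = 2) of IP. The nucleotides of the nc-TU outside it held 52766 and 58179 reads. In the table, snu4 (minus strand) runs from 14 nt before the last base of met17, the gene of a sulfur amino acid enzyme on the plus strand, to 114 nt past it, and novelncTU_372 from the same start to 364 nt past it. RefSeq places a snu4 of 127 nt from 242 to 368 nt past the end of met17, also on the minus strand. The part of the nc-TU that carried the reads thus includes, by distance from the same neighbour, most of the place where RefSeq has U4. The distances were counted within each annotation, and no coordinate was moved between builds.

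The 2 snoRNA-bearing nc-TUs were far lower. novelncTU_269 (chromosome I, 987662 to 987948, minus strand, 287 nt) shared 164 of the 256 nt of snu3, the U3 RNA that acts in ribosomal RNA processing. It had 2519 and 2478 IP reads and 598 and 784 input reads. The whole snu3 interval had 2379 and 2413 IP reads, an unknown part of them outside the nc-TU. novelncTU_6 (chromosome I, 170275 to 170810, plus strand, 536 nt) shared 102 of the 148 nt of snR97 and had 49 and 43 IP reads and 1 and 1 input reads. The whole snR97 interval had 6 and 12 IP reads, fewer than the nc-TU. In the limma test of IP against input, described in full further on, the log2 change was 6.43 ± 0.34 (SE) for the U2 unit, 6.56 ± 0.31 for the U5 unit and 5.32 ± 0.25 for the U4 unit, and 2.27 ± 0.31 for the U3 unit and 3.45 ± 0.15 for the snR97 unit. Relative to the median of all units in that fit, 2.90, the U3 unit was lower, and edgeR with TMM gave it -1.84. Its limma call (adjusted p = 0.00278) was lost without IP replicate 1 (0.066) or IP replicate 2 (0.0684).

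Of the 482 nc-TUs without a small RNA, 144 overlapped a protein-coding gene by at least 50 nt on the same strand (sense), 285 overlapped one by at least 50 nt on the other strand only (antisense), 18 began within 500 bp of the start of a gene that runs the other way (divergent) and 35 did none of these (other). The sense units were mostly parts of gene models: among all 487, 146 shared nucleotides with a same-strand gene, 133 lay fully inside it and 4 reached its coding sequence. The gene never had fewer reads than a sense nc-TU inside it in the 128 cases compared further on, so the signal of a sense unit is not independent of its gene, and the transcript it belongs to cannot be told apart. The median length of the 487 was 376 nt (201 to 3829). Chromosome I carried 245 (10.5 per 100 genes), II 142 (7.61 per 100) and III 100 (10.9 per 100), and 250 lay on the plus and 237 on the minus strand.

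Most nc-TUs had an IP signal above 1 RPKM, which stands for few reads at their length. Above 1 RPKM in IP were 412 of 482 (85.5%), with 84.0% and 85.3% in the separate replicates. In input 34 (7.05%) passed this level. The study asked for more than 1 RPKM and also for a minimum coverage by reads, which these values do not give. The median length was 372.5 nt for these nc-TUs and 1886 nt for protein-coding genes, so 1 RPKM stands for fewer reads in a typical nc-TU. The annotated ncRNA SPNCRNA.488, 374 nt long, had 3 reads and 1.13 RPKM in IP replicate 1. At the length of a typical nc-TU, 1 RPKM thus lay under the floor of 3 reads, unlike in a typical gene. The median was 4.88 and 4.56 RPKM in the IP libraries and 0 and 0.206 RPKM in input. Protein-coding genes had a median of 25.4 RPKM in IP and 96.2% above 1 RPKM, annotated ncRNAs 3.45 RPKM and 81.3%, and XUTs 2.70 RPKM and 81.7%. By level in IP, 70 nc-TUs were at or under 1 RPKM, of which 65 were antisense. Another 270 lay between 1 and 10 RPKM, 128 between 10 and 100, and 14 above 100.

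Levels differed with position. Sense units had IP medians of 11.8 and 10.4 RPKM and input medians of 0.266 and 0.495 RPKM, and all 144 passed 1 RPKM in IP. Antisense units had 2.84 and 2.69 RPKM in IP and 0 RPKM in each input library, and 220 of 285 (77.2%) passed. Divergent units had 6.0 and 5.18 RPKM in IP, and 17 of 18 passed. The remaining class had 4.20 and 4.10 RPKM in IP, and 31 of 35 (88.6%) passed. In each class both IP medians were above both input medians, and the IP replicates of a class lay closer to each other than the sense and antisense medians did. The classes are sets of different loci in the same libraries, so their difference was not tested.

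**Figure D1:**
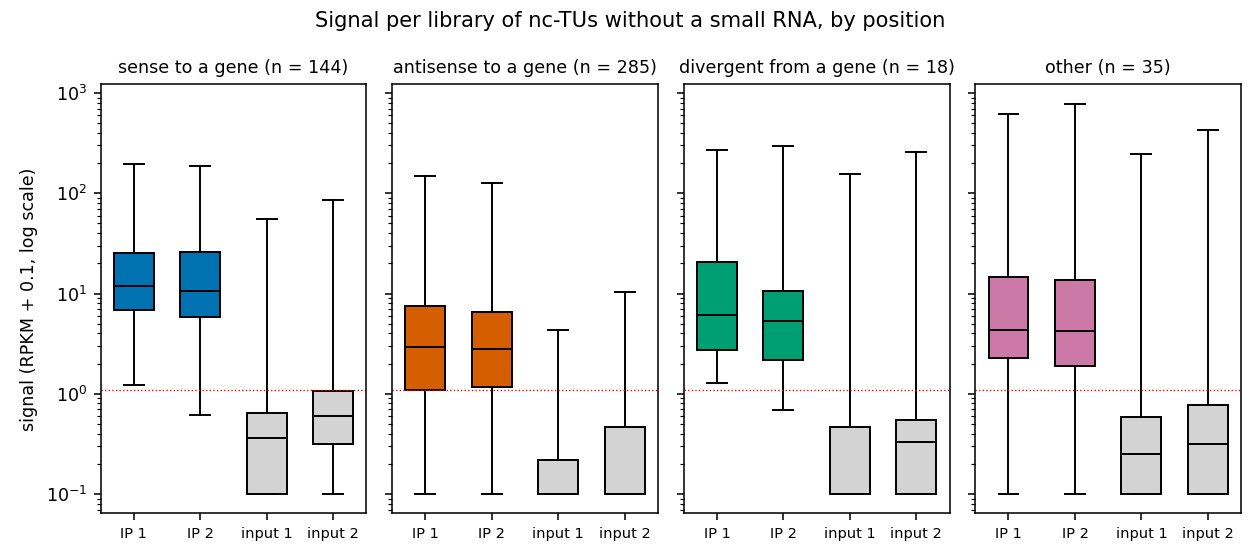
Box plots of signal (RPKM + 0.1, log axis) in each library for the nc-TUs without a small RNA, with 1 panel per position class; boxes give quartiles and the median, whiskers the lowest and highest unit, and the dotted line marks 1 RPKM. The IP boxes of sense units (medians 11.8 and 10.4 RPKM) stand above those of antisense units (2.84 and 2.69 RPKM), and the input boxes lie near the floor in each class.

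IP was compared with input to ask which nc-TUs carry more nascent than total RNA signal. On the authors' scaling, which divides each library by its uniquely mapped reads, 431 of the 475 nc-TUs without a small RNA that had any read (90.7%) were higher in IP and 0 lower (limma on log2(RPKM + 1), Benjamini-Hochberg adjusted over all 8912 units tested, 0.05). This is near the background: 92.8% of all units were called higher and 0.92% lower. The count thus says nothing particular of nc-TUs. Reads of tRNAs took 92.2% ± 3.22 (SD, n = 2) of the input total and 5.69% ± 0.141 (SD, n = 2) of the IP total, which leaves fewer input reads for every other unit on this scaling. The median log2 change was 2.27 for the 475 nc-TUs (2.38 and 2.14 in the separate pairs), 3.28 for protein-coding genes and 2.90 for all units. For annotated ncRNAs it was 1.92, and for XUTs 1.70. The other 7 nc-TUs had no read in any library.

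Centring turned the sign of the median change. With each fit centred on the median protein-coding gene, 49 nc-TUs were higher (10.3%, background 9.11%) and 321 lower (67.6%, background 54.6%). The median was -1.24, against -0.23 for genes, so nc-TUs stood under genes as on the authors' scaling. That scale adds 1 RPKM before the log, which shrinks the change of low units such as nc-TUs more than that of genes. edgeR with TMM on the recovered whole reads, which adds no such constant, called 57 higher (12%, background 14.7%) and 6 lower (1.26%, background 14.7%). Its median was 1.49 for nc-TUs, against 0.07 for genes and 0.31 for all units. XUTs had 1.54 and annotated ncRNAs 1.05, so a median above that of genes was not particular to nc-TUs. Median edgeR changes by class were 0.96 for sense, 2.02 for antisense, 1.72 for divergent and 0.98 for the others, and 34, 20, 0 and 3 of them passed as higher. Units with 0 input reads enter these medians at fitted values that depend on a prior count, and 168 of the 482 had none in either input library.

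Read sums need neither the added constant nor a library scaling. Per 100 reads of 5109 protein-coding genes that hold no small RNA, the 482 nc-TUs had 0.705 and 0.731 reads in the IP libraries, against 0.751 and 0.648 in the input libraries. These groups overlapped, and the ratio of IP to input was 0.938 and 1.13 in the pairs. The input sum, however, was mostly that of 4 units (novelncTU_468, novelncTU_449, novelncTU_410 and novelncTU_436), singled out after their values were seen because the fourth highest input value, 70.3 RPKM, was followed by 9.26. They held 74.3% ± 2.83 (SD, n = 2) of the input reads of the 482 but 13.0% ± 0.921 (SD, n = 2) of the IP reads. Without them, the remaining 478 had 0.618 and 0.631 reads per 100 gene reads in IP and 0.178 and 0.180 in input, a ratio of 3.47 and 3.51. For the 4 alone the ratio was 0.152 and 0.213. Without them, the ratio was 3.29 and 3.49 for sense, 3.9 and 3.45 for antisense, 3.34 and 3.9 for the others and 4.14 and 2.67 for divergent units, so both pairs of each class stood above 1 and the classes overlapped in their pair values. With the 4 kept in their classes, the ratio was 2.18 and 2.51 for sense, 0.176 and 0.208 for divergent and 0.358 and 0.501 for the others, so that the last 2 classes then stood below 1. With 2 libraries a group, an exact permutation test cannot pass 0.05, and none was run.

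**Figure D2:**
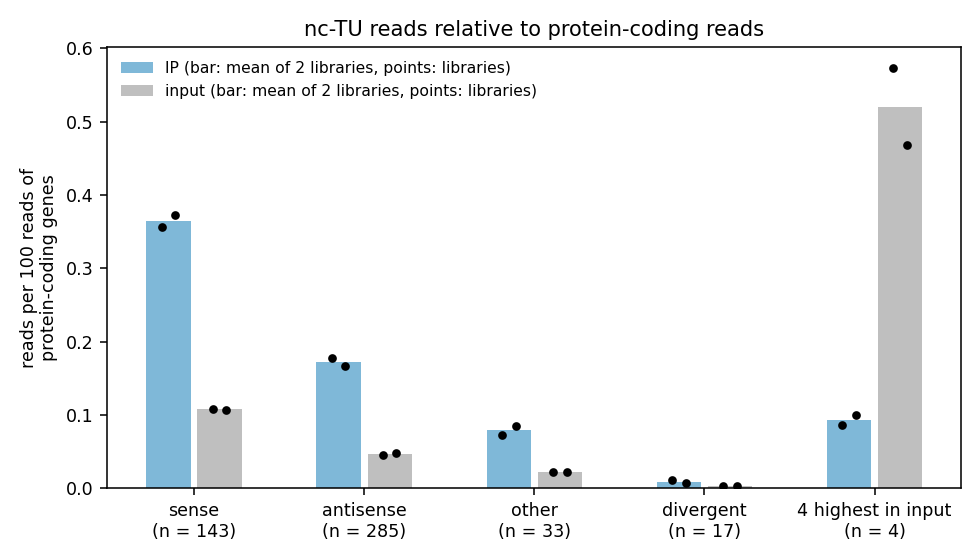
Reads of nc-TUs per 100 reads of protein-coding genes (linear axis from 0) in IP and input, by position class without the 4 units highest in input, which have their own bars; bars are means of 2 libraries and points the libraries. For sense units IP was 0.364 and input 0.108, while the 4 units stood at 0.573 and 0.468 in input, above their IP values of 0.0869 and 0.0997.

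The 4 units with high input signal were 225 to 378 nt long and lay on chromosomes II and III. novelncTU_468 (chromosome III, 1717920 to 1718144, minus strand, 225 nt) was the highest in both groups among the 482. It had 985 and 1247 IP reads and 503 and 951 input reads. The IP level was 698 RPKM ± 115 (SD, n = 2), and that of input 338 RPKM ± 130 (SD, n = 2). The log2 change was 1.09 ± 0.43 (SE; limma, adjusted p = 0.0712), under the median of all units by more than its SE, and edgeR gave -2.99. The table has snR46 on the plus strand opposite this unit, with 6 and 3 IP reads and 0 and 1 input reads. RefSeq has snR46, 168 nt, on the minus strand, the strand of the nc-TU, beside a longer minus-strand entry named as its primary transcript. It was the only small RNA of 62 matched by identifier whose strand differed between table and RefSeq. The snoRNAs of the table, for comparison, had a median of 1419 RPKM in IP and 713 RPKM in input, with a median IP/input ratio of 2.31 (summed reads, each group divided by its implied library totals), and that of novelncTU_468 was 2.04 (95% interval 1.91 to 2.18, exact, counting error only).

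novelncTU_449 (chromosome III, 926478 to 926725, minus strand, 248 nt) had 930 and 956 IP reads and 511 and 864 input reads, with a ratio, scaled in the same way by library totals, of 1.82. novelncTU_410 (chromosome II, 2641195 to 2641572, minus strand, 378 nt) began 332 bp from the start of prp1, which encodes a splicing factor and runs the other way. It had 727 and 804 IP reads and 539 and 955 input reads, a scaled ratio of 1.36, and its groups overlapped in reads but not in RPKM (285 ± 19.8 in IP, 207 ± 70.8 in input, SD, n = 2). Neither passed the limma test (adjusted p = 0.0805 and 0.290). Without input replicate 2, novelncTU_468, novelncTU_449 and novelncTU_410 passed as higher (0.0129, 0.00226 and 0.00971), and novelncTU_449 also without input replicate 1 (0.00916). novelncTU_436 (chromosome III, 191761 to 192122, minus strand, 362 nt) lay in the 3′ end of pdh1, centred 92.0% of the way from its start, and faced fta7, which encodes a kinetochore protein. It had 386 and 393 IP reads and 183 and 302 input reads, whereas the rest of pdh1, 2747 nt, had 235 and 184 in IP and 5 and 10 in input. Its level was therefore 14.1-fold that of the rest of its gene in IP, and it passed as higher in IP at 1.13 ± 0.37 (SE, adjusted p = 0.0444). It did not pass with the replicate number as a block (adjusted p = 0.194), nor without IP replicate 1 (0.253) or IP replicate 2 (0.268). edgeR gave -3.18, -3.59 and -2.95 for these 3 units. What RNA the input reads of novelncTU_449, novelncTU_410 and novelncTU_436 came from was not tested.

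**Figure D3:**
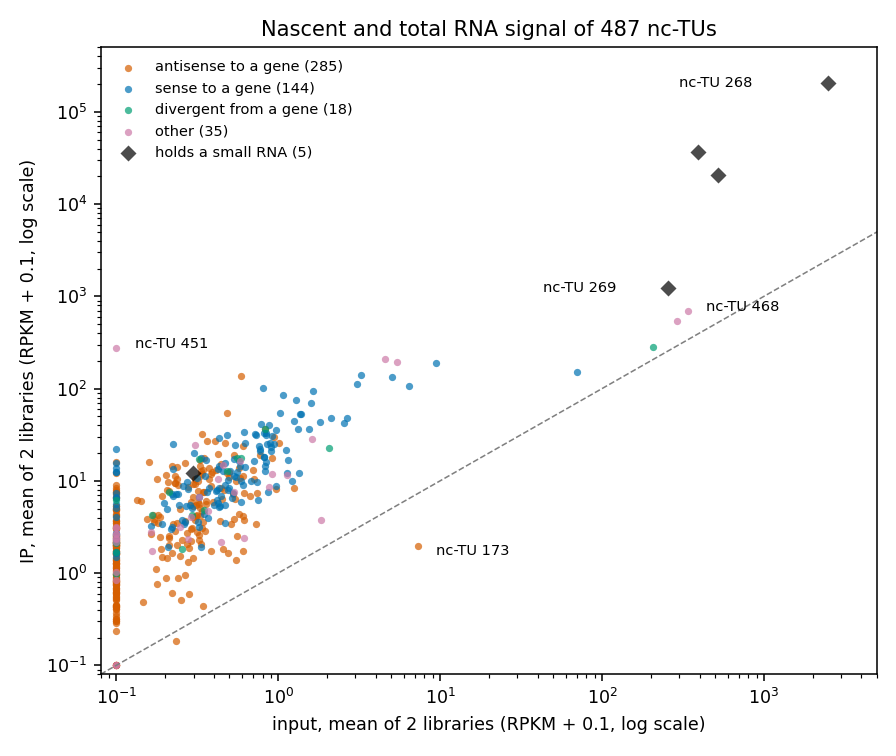
Mean IP against mean input signal (RPKM + 0.1, log axes) of 487 nc-TUs, coloured by position class, with diamonds for the 5 that hold a small RNA and a dashed line where both are equal. Most units lie above the line near the input floor; novelncTU_451 had 274.7 RPKM in IP and no input read, novelncTU_468 and its neighbours in the plot lie close to the line, and novelncTU_173 lies under it.

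Apart from these, the highest nascent signals were units with little or no input. novelncTU_451 (chromosome III, 950006 to 950237, minus strand, 232 nt), 489 nt downstream of trm8, a tRNA methyltransferase gene, and opposite the annotated ncRNA SPNCRNA.477, had 440 and 466 IP reads and 0 and 0 input reads. Its IP level was at least 200.5-fold higher, with input set at the floor of 3 reads per library. Its level was above that of trm8 (21.9 RPKM in IP). novelncTU_312 (chromosome I, 3573369 to 3574044, minus strand), which an XUT covers, had 963 and 1048 IP reads and 15 and 43 input reads. Its neighbour novelncTU_311 (3572796 to 3573114, minus strand) had 350 and 531 in IP and 6 and 27 in input. Both IP libraries were far above both input libraries for each of these 3 units, and all passed as higher under limma and edgeR. novelncTU_311 missed the limma threshold without IP replicate 2 (adjusted p = 0.0518).

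The highest antisense unit was novelncTU_170 (chromosome II, 2464397 to 2464605, plus strand, 209 nt). It had 219 and 190 IP reads and 0 and 2 input reads, faced dbp5, which encodes an RNA helicase of mRNA export, and began 36 nt downstream of srm1 on its own strand. srm1 stood at 152 RPKM in IP and the nc-TU at 138 RPKM ± 14 (SD, n = 2). Among units that shared no nucleotide with any same-strand unit, novelncTU_343 had 114 and 103 IP reads and 1 and 1 input reads. It rose in IP by 5.34 ± 0.20 (SE) on the log2 scale (limma, adjusted p = 0.000632). It faced not3, which encodes a subunit of the CCR4-NOT deadenylase complex. The divergent novelncTU_247, which began 12 bp from the start of SPCC70.02c, had 61 and 47 IP reads and 0 and 3 input reads, at 4.56 ± 0.52. novelncTU_9 had 145 and 93 IP reads and 3 and 0 input reads, at 4.46 ± 0.35, and novelncTU_41, antisense to rrg9, had 46 and 38 in IP and none in input, at least 18.6-fold higher. All of these were above 2.90, the median of all units. Completing the 10 largest of this kind, novelncTU_48, novelncTU_456, novelncTU_252 and novelncTU_357 had between 43 and 75 IP reads per library and at most 4 input reads, at 4.08 to 4.75. Of the 14 units above 100 RPKM in IP, the sense units included novelncTU_142 (348 and 448 IP reads against 9 and 31 in input) and novelncTU_95 (238 and 172 against 16 and 16).

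In all, 29 units had no input read and at least 10 reads in each IP library. Except for novelncTU_451, their IP levels were between 2.13 and 22.1 RPKM, so that the input floor allows bounds between at least 4.65-fold and at least 19.5-fold. These bounds use the library totals, on which protein-coding genes had medians of 25.4 RPKM in IP and 1.37 RPKM in input. Bounds of this size therefore do not set the units apart from genes. Of these 29, 19 were antisense, 8 sense, 1 divergent and 1 in the remaining class. The shortest nc-TUs show the other limit: novelncTU_12 (201 nt) had 1 and 0 IP reads with no input read, and novelncTU_299 (201 nt) had 1 and 1 IP reads with no input read. The longest had many more IP reads, though how much of each was covered is not known from these values. novelncTU_441 (2889 nt), antisense to mug190 and covered by an XUT, had 478 and 489 IP reads and 6 and 22 input reads, and novelncTU_210 (3829 nt), at the spore-killer gene family member wtf5, had 183 and 124 in IP and 3 and 4 in input. Length and IP level were weakly related across the 482 (rho 0.152, a description).

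Few units leaned to input. novelncTU_173 (chromosome II, 2727374 to 2727634, plus strand, 261 nt), antisense to arf1, the gene of a vesicle-trafficking GTPase, had 2 and 5 IP reads and 10 and 26 input reads. Both input libraries were above both IP libraries. Its IP/input ratio, scaled by library totals, was 0.259 (95% interval 0.0971 to 0.589, exact, counting error only). It missed the limma threshold (-1.46 ± 0.52 SE, adjusted p = 0.0523), and passed as lower without input replicate 1 (0.044), with the replicate number as a block (adjusted p = 0.000132; this fit has 1 residual degree of freedom per unit) and in edgeR (-5.86, adjusted p = 1.1e-06). novelncTU_239 (chromosome III, 2067570 to 2067874, plus strand) had 7 and 9 IP reads and 5 and 5 input reads. It passed as higher under limma at 0.77 ± 0.17 (adjusted p = 0.0125; 0.0522 to 0.0745 without each library in turn) but as lower in edgeR at -2.90 (adjusted p = 0.00674). The 6 that edgeR called lower were these 2 and the 4 with high input signal.

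Within genes, sense nc-TUs had signals near those of the rest of their host. The comparison set each nc-TU against the rest of the same gene in 128 units of 118 genes, after 5 whose host holds a small RNA were left out. The median was 12.3 RPKM in IP against 14.9 for the rest of the host, and 54 of 128 were above it in IP (46 in both replicates), 39 in input. The 72 units centred nearer the 5′ end of their gene covered 16.6% of its length and held 15.3% ± 0.680 (SD, n = 2) of its IP reads and 10.1% ± 0.520 (SD, n = 2) of its input reads. IP and input shares did not overlap between libraries (14.8% and 15.8% against 9.69% and 10.4%). The 56 units centred nearer the 3′ end held 13.1% ± 0.372 (SD, n = 2) of the nascent reads and, of input reads, 23.3% ± 1.56 (SD, n = 2). That input share rested on novelncTU_436: without it, 55 units covered 17.5% of the length and held 12.1% ± 0.285 (SD, n = 2) of the nascent reads and, of input reads, 11.4% ± 0.108 (SD, n = 2).

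The largest excess over the host after novelncTU_436 was that of novelncTU_331 in SPAC1093.07, with 17.05 RPKM against 5.39 RPKM for the rest (3.17-fold; 45 and 42 reads in IP). novelncTU_452 covered 24.5% of gsf2, a flocculin gene, near its 5′ end. It had 281 and 275 of the gene's reads in IP against 301 and 328 in the rest, a level 2.73-fold higher. novelncTU_32 in ppk1, a protein kinase gene, had 142 and 170 IP reads and 0 and 3 input reads (1.91-fold over the rest in IP). At the other end, novelncTU_402, near the start of top2, the topoisomerase II gene, had 8 and 15 reads in IP and stood at 1.82 RPKM against 23.9 RPKM for the rest. novelncTU_421, near the start of the carbonic anhydrase gene nce103, had 7 and 8, at 4.93 RPKM against 53.9 RPKM. Both thus stood below the rest of their gene in IP. The unit with the highest IP level in this set, novelncTU_418 in the leader of the peptide transporter gene ptr2, had 588 and 556 IP reads and 30 and 44 input reads, at 191.6 RPKM against 312.7 RPKM for the rest.

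**Figure D4:**
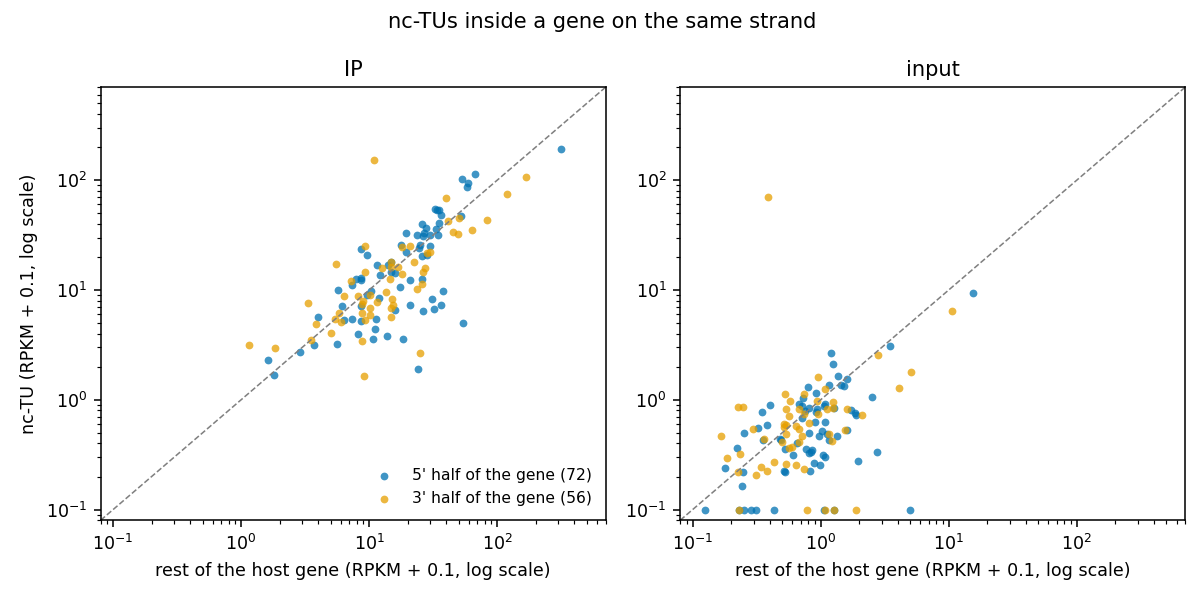
Signal of 128 sense nc-TUs against the rest of their host gene (RPKM + 0.1, log axes), in IP at left and input at right, coloured by whether the nc-TU lies nearer the 5′ or the 3′ end of the gene; the dashed line marks equal levels. Units scatter about the line in IP (54 of 128 above it), and novelncTU_436 stands far above it in both panels, at 151 RPKM in IP and 70.3 RPKM in input.

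Units that overlapped a gene on the other strand, sense units included, were usually far below it. With an overlap of at least 50 nt there were 357 pairs of 353 nc-TUs and 311 genes. Of these pairs, 287 came from the 285 antisense units. The other 70 came from 68 sense units, whose reads are also those of a same-strand gene. The median was 3.73 RPKM for the nc-TU against 40.8 RPKM for the gene in IP, and 0.131 against 2.00 RPKM in input. The nc-TU was the higher of the pair in 41 pairs (11.5%; 41 and 42 in the separate replicates, 35 in both). It was 24 of 287 (8.36%) for antisense units and 17 of 70 (24.3%) for sense units. Among pairs whose nc-TU shared no nucleotide with a same-strand unit it was 13 of 230 (5.65%). The 311 genes with an antisense nc-TU had a median of 40.8 RPKM in IP, against 25 RPKM for the 4818 other genes. Across pairs, the levels of nc-TU and gene had a Spearman rho of -0.415 and a Pearson r of -0.350 on the log scale, given as a description over 357 pairs that share libraries and, in part, genes. In the 230 pairs without shared nucleotides rho was -0.242. For the pairs of antisense units it was -0.345, and for those of sense units 0.0515.

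Levels of the pairs are given next by what the nc-TU covered, with sense units included. Where it covered the gene's start (36 pairs), the nc-TU median was 5.31 RPKM and the gene median 17.3 RPKM, and the nc-TU was higher in 10 (27.8%). Where it covered the end (19 pairs) the medians were 8.0 and 21.8 RPKM, with the nc-TU higher in 4. In the 302 pairs that covered neither end they were 3.42 and 44.9 RPKM, with the nc-TU higher in 27 (8.94%). Sense units supplied 13 of the 36 pairs at a gene start, but 70 of all 357 pairs. Over those 70 the medians were 8.73 RPKM for the nc-TU and 16.9 RPKM for the gene. Whether these shares differ was not tested, and cover and class cannot be told apart in them.

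**Figure D5:**
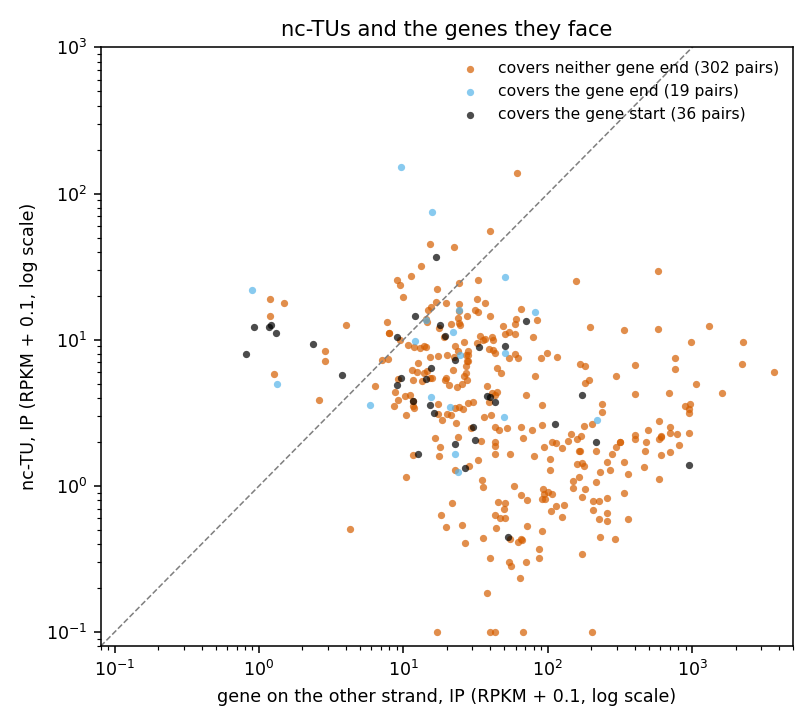
IP signal of nc-TUs against that of the gene on the other strand (RPKM + 0.1, log axes) in 357 pairs, coloured by the gene end the nc-TU covers; the dashed line marks equal levels. Most pairs lie under the line; 41 lie above it, among them novelncTU_374 at 21.7 RPKM facing cid11 at 0.796 RPKM.

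In 9 of the 10 pairs with the largest excess, the nc-TU faced a gene near the 1 RPKM threshold, at 0.706 to 1.39 RPKM. The exception was novelncTU_436 at 151 RPKM, 16-fold above fta7 at 9.48 RPKM (96 and 111 IP reads). novelncTU_374 had 199 and 174 reads in IP where cid11, a member of the noncanonical poly(A) polymerase family, had 9 and 10. This gave 21.7 against 0.796 RPKM, a 27.2-fold excess. novelncTU_75 and novelncTU_76, both inside the same XUT, faced SPAC4H3.03c (20 and 25 reads in IP), with 101 and 62 reads and 108 and 73 reads. novelncTU_231, which overlaps cid12 on its own strand, covered the whole of trp663, with 269 and 245 reads against 17 and 17. novelncTU_243 faced fzr3, which encodes a meiotic activator of the anaphase-promoting complex, with 140 and 133 reads against 4 and 12. In each of these pairs both IP libraries showed the nc-TU above the gene, but the pairs were ranked on the means of the same libraries. That agreement and the low levels of the genes follow in part from the ranking and are no separate support. novelncTU_374, novelncTU_231 and novelncTU_243 are sense units, so their reads are also those of a same-strand gene. At the other extreme, novelncTU_148 and novelncTU_149 faced act1, the actin gene, which had 7872 and 8099 reads in IP. The first had 6 and 3 IP reads and the other 3 and 4, and neither had an input read, at 1.53 RPKM ± 0.725 and 2.08 RPKM ± 0.416 (SD, n = 2).

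Outside same-strand genes, nc-TUs near the end of an upstream gene had the higher median, a difference between loci that was not tested. Of 338 such units, 45 began within 500 nt downstream of a same-strand gene and had IP medians of 8.22 and 6.36 RPKM, with 41 (91.1%) above 1 RPKM. The other 293 had 2.66 and 2.45 RPKM, with 227 (77.5%) above it. The median of the first set was higher than that of the second in both IP libraries. Across units, the level of the nc-TU had a rho of 0.305 with that of its upstream gene in the near set and 0.0428 in the far set, as a description. Reads that run on from the upstream gene and reads of a transcript of its own cannot be told apart in these values.

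XUTs, which were defined by another assay, covered at least 50% of 87 of the 482 nc-TUs (20 sense, 44 antisense, 5 divergent and 18 others). Outside same-strand genes, the 67 covered units had an IP median of 4.12 RPKM and 64 (95.5%) were above 1 RPKM, against 2.45 RPKM and 204 (75.3%) for the 271 without such cover. Input medians were 0.147 and 0.0652 RPKM. A unit and the XUT that covers it share reads, so their values are not independent. The highest covered units were novelncTU_312, described above, and novelncTU_195 at the 5′ end of ssn6, a corepressor gene, with 843 and 970 IP reads and 14 and 41 input reads. novelncTU_125, inside another XUT and sense to a gene, had 74 and 180 IP reads and 0 and 6 input reads, and its IP replicates differed more than most: 92.7% of the 482 units lay within 2-fold between IP libraries on the log2(RPKM + 1) scale.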

How the data were processed

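NET-seq data of 2 IP and 2 input libraries were analysed, grouped by their labels. The authors mapped 50-nt reads with Bowtie (2 mismatches) to ASM294v2.30, kept unique matches and normalized each library on them. What they deposited is a signal: the normalized number of reads on each annotated unit and strand. How a read over several units was counted is not given in the sources used here. In each library 100.0% of values were whole multiples of the value of 1 read (tolerance 1e-06), so whole reads were recovered. RPKM was scaled so that IP replicate 1, whose values per read are largest, has 7100000 reads, so absolute levels rest on that anchor. Of 19343 rows, 10204 CDS segments and 28 repeated entries were left out, which gave 9111 units. Pooled columns were not used.

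IP and input were compared by limma 3.58.1 with a trend on log2(RPKM + 1), which understates changes of low units, over units with a read. edgeR 4.0.16 (quasi-likelihood, TMM) and DESeq2 1.42.0 on the recovered reads were alternatives, and edgeR called 1312 units higher and 1312 lower among 8912. P-values rest on the spread between 2 biological replicates, which limma draws for each unit towards a trend over all units. The main fit takes all libraries as independent, though each IP shares its biological sample with an input. The scripts were tested on simulated data of 6243 units, with a log2 change of 3 in 200 of them. Units with as few reads as the median nc-TU were left out, so the simulation does not cover them. Named units were the 10 highest in IP, in input and in log2 change past the threshold (without shared nucleotides), those lowest in change, the 10 largest excesses over an antisense gene, the 3 shortest and longest and those within 2 kb of act1. Other units were picked with their values in view. The members, lists and rules were chosen with earlier results of these data known. The labels pair each IP with the input of its number; replicate differences of IP and input had r = 0.0593 over 8912 units and 0.110 over the 475 nc-TUs. Sequences came from RefSeq ASM294v3 by identifier; the nc-TUs themselves have no sequence printed, since that is another build. Versions were R 4.3.3, Python 3.11.15, pandas 2.3.3, numpy 2.4.6, matplotlib 3.10.9 and scipy 1.17.1.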

Additional observations from a re-analysis of the deposited data

How the results depend on the processing

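The median change of nc-TUs without a small RNA turned negative under centring and stayed positive under the other scalings and tests. Its order relative to genes changed otherwise. The nc-TU median was under the gene median on the authors' scaling (2.27 against 3.28) and under centring (-1.24 against -0.23). It was above the gene median in edgeR (1.49 against 0.07), DESeq2 (0.60 against -0.01) and with quantile normalization (0.17 against -0.05). Against 431 higher, 0 lower and a median log2 change of 2.27, centring on protein-coding genes gave 49, 321 and -1.24, quantile normalization 56, 9 and 0.17, totals without tRNAs, rRNAs and snRNAs 239, 6 and 1.76, edgeR 57, 6 and 1.49, and DESeq2 24, 6 and 0.60. With the replicate number as a block, limma gave 457, 1 and 2.27, and edgeR 58, 6 and 1.48. Over all units, limma with the block called 95.0% higher and 0.886% lower (nc-TUs 96.2% and 0.211%). Quantile normalization called 10.3% and 7.89% (nc-TUs 11.8% and 1.89%), and DESeq2 7.93% and 12.7% (nc-TUs 5.05% and 1.26%). Such shares for centring and edgeR with TMM are given above, and those of the remaining fits are not given here. Leaving out each library in turn (an arm then has 1 library, assumed to vary like the others) gave medians of 2.18 to 2.35. Shares above 1 RPKM were then 84.0% to 85.3%, IP medians 4.56 to 4.88 RPKM, and 41 to 42 antisense pairs had the nc-TU higher. A pseudocount of 0.1 moved the median to 4.37, 10 to 0.55, and a minimum of 1 RPKM to 2.48 with 1 lower. Units without shared nucleotides gave 1.58, and without those inside genes 1.76. The share above the threshold of 1 RPKM (85.5%) became 92.9% at 0.5 RPKM, 73.0% at 2 RPKM, 73.9% without shared nucleotides and 79.3% without sense units. The median IP signal (4.90 RPKM) became 2.37, 8.25 (other totals) and 2.96. The antisense pairs with a higher nc-TU fell from 41 to 13 without shared nucleotides, and the IP/input ratio of reads per gene read rose from 1.03 to 3.49 without the 4 units highest in input, an alternative chosen after seeing the data. The causes of these moves were not tested, beyond the fewer units that some alternatives use.

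Single units turned negative. Under centring, other totals, edgeR, DESeq2 and blocked edgeR, in that order, novelncTU_269 gave -1.24, -0.92, -1.84, -1.91 and -1.82, novelncTU_468 -2.42, -2.11, -2.99, -3.05 and -3.0, novelncTU_449 -2.60, -2.28, -3.18, -3.25 and -3.18, novelncTU_410 -3.01, -2.70, -3.59, -3.65 and -3.59 (quantile -1.21), novelncTU_436 -2.38, -2.06, -2.95, -3.02 and -2.95 (quantile -1.42), and novelncTU_239 -2.74, -1.96, -2.90, -3.05 and -2.92 (quantile -2.09). Centring gave -0.063 for novelncTU_6, -2.78 for novelncTU_310 and -2.76 for novelncTU_162. The last 2 were also negative under quantile normalization (-1.14 and -1.41), other totals (-0.51 and -1.16), edgeR (-2.41 and -1.94) and DESeq2 (-2.84 and -2.16). Depth limits any ratio of a unit with few input reads.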
